A study of Drosophila melanogaster with 2 samples.

Results

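Of 5867 reproducible Med-eGFP summits, 1364 lay at divergent gene-pair promoters, which is 23.2% of all summits and 37.3% of the 3657 summits within 1000 bp of a protein-coding transcription start site (TSS). A summit was counted here when it lay within 1000 bp of the TSSs of 2 protein-coding genes on opposite strands, head to head, with those TSSs at most 1000 bp apart. The rule used positions and no signal. The data are anti-GFP chromatin immunoprecipitation followed by sequencing from whole Drosophila melanogaster embryos aged 0 to 24 h, pooled male and female, from a transgenic line that carries GFP at the C terminus of Med. There was 1 group with biological replicates 2 and 3, from separate biosamples, and no other genotype, stage or treatment, so every result is a description with the replicates side by side. Replicates were called against 1 shared control file. Whole embryos mix all cell types and 24 h of development, so a summit names no cell or stage.

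Medea, the product of Med, is the common Smad of the fly: it joins receptor-activated Smads in the nucleus after BMP (Dpp) or activin signalling and binds short GTCT-containing sites. Divergent promoters are stretches of DNA from which a pair of neighbouring genes are transcribed outward in opposite directions. In Drosophila many of them serve broadly expressed housekeeping genes, and the DNA replication-related element (DRE) and the motif bound by M1BP are known core promoter elements of such genes. BEAF-32, a boundary factor that binds CGATA repeats, is also known for sites between head-to-head genes.

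The bases between the start sites are shown for 6 of the 12 strongest peaks, as the stretch that both genes of a pair share upstream of their TSSs. Of the others, 5 have TSSs over 300 bp apart and Fbw5/CG9147 has an annotated exon in the stretch. They are RefSeq Release 6 (dm6) sequence of the plus strand, 5′ to 3′, from the base after the minus-strand TSS to the base before the plus-strand TSS. Capitals mark the DRE (TATCGATA), the BEAF site (CGATA), the M1BP motif (GGTCACAC) and the added string CANCNCTG on either strand, where N is any base. A DRE contains a BEAF site on each strand, so these marks overlap.
Chro/Ssl1: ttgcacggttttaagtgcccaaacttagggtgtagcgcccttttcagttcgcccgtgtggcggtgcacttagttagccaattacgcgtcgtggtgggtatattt
Tcs5/CHMP2B: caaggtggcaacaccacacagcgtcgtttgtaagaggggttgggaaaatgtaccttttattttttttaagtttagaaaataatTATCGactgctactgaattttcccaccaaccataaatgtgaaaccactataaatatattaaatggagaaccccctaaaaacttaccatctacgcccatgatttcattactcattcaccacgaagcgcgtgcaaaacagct
Atat/Shc: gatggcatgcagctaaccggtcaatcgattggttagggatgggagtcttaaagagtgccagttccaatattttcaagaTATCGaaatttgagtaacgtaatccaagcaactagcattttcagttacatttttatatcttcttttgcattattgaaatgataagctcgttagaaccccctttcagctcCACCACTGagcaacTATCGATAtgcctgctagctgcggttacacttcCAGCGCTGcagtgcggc
Art3/mRpS10: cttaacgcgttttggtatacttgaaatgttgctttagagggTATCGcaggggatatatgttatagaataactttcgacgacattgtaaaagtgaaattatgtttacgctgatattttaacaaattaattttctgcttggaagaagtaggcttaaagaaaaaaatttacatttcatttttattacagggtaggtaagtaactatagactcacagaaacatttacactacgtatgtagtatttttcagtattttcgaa
CG8372/CG8360: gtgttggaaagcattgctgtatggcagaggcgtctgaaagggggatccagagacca
Mnat9/CG1792: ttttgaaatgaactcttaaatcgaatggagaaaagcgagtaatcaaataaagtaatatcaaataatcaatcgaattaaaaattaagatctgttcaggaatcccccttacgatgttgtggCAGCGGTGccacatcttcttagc
The Chro/Ssl1 stretch is chr3L:22878985-22879088 and has no marked motif. The Tcs5/CHMP2B stretch, chr3L:5139396-5139618, holds 1 BEAF site at position 84, and the summit is at position 106. The Atat/Shc stretch, chr3L:9426759-9427009, holds the most marks of these stretches, with a DRE at position 202, a separate BEAF site at position 79, the added string at positions 188 and 235, and its summit at position 142. The Art3/mRpS10 stretch is chr3R:15229409-15229664, with a BEAF site at position 42 and the summit at position 111. The CG8372/CG8360 stretch, chr2L:8212903-8212958, has no mark, and its summit, like that of Chro/Ssl1, lies outside the stretch in an annotated exon. The Mnat9/CG1792 stretch is chr3R:31616161-31616302, with the added string at position 120 and the summit at position 13. Positions are counted from 1 at the first printed base, and a match of letters is not a binding site.

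The strongest peak at a divergent pair, which is also the strongest of the whole reproducible list, stood between Ugalt, which encodes a UDP-galactose transporter, and eIF2Bbeta, which encodes a subunit of the nucleotide exchange factor for eIF2. The reproducible list gave it 8099 units of signal, where replicate 2 had 3658 and replicate 3 had 4467. Signal is a peak's value as deposited by the authors, on an unstated scale that can differ between lists. The summit lay 28 bp from the Ugalt TSS and 691 bp from that of eIF2Bbeta. The peak at Chro, which encodes the interband chromatin protein Chromator, and Ssl1, which encodes a subunit of the general factor TFIIH, reached 5499 (2738 in replicate 2, 2780 in replicate 3). The peak at PNPase and Gprk2, a G protein-coupled receptor kinase gene, reached 5274, with 2373 and 2922 in replicates 2 and 3. All 3 were among the 8 strongest peaks of each replicate.

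The next pairs joined genes of unlike function. Tcs5/CHMP2B, the latter encoding an ESCRT-III subunit, reached 4460 (2404 in replicate 2, 2070 in replicate 3). Atat/Shc, a tubulin acetyltransferase gene beside the gene of a receptor tyrosine kinase adaptor, had 3885 (2242 and 1671). At mRpS23/CenG1A, which includes a gene of a mitochondrial ribosomal protein, the signal was 3829 (1717 and 2124). Art3/mRpS10, an arginine methyltransferase gene beside another mitochondrial ribosomal protein gene, had 3324 (1740 and 1593). The others of the 12 strongest were Fbw5/CG9147 (3420), CG5757/CG5098 (3397), CG8372/CG8360 (3232), Mnat9/CG1792 (3178) and mRpL41/CG8079 (3158). Every one of the 12 ranked among the 34 strongest peaks of replicate 2 and the 30 strongest of replicate 3.

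Med-eGFP summits were found at 1336 of the 2667 divergent pairs in the annotation, which is 50.1% (95% Wilson interval 48.2 to 52.0%). The share was 48.6% from the 5867 strongest peaks of replicate 2 alone and 49.7% from those of replicate 3 alone. Intervals cover counting error only, and pairs are not independent replicates. Counted by gene, a summit stood within 1000 bp of a TSS of 2642 of the 5052 genes in such pairs, 52.3%, against a background of 19.3% (1718 of 8893) of the other protein-coding genes. The ratio was 2.71, and it was 2.90 in replicate 2 and 2.56 in replicate 3. A summit in a pair counts for both of its genes, which raises this ratio. The ratio also moved with the number of annotated TSSs. It was 3.35 among genes with 1 TSS (46.6% against 13.9%), 2.07 among genes with 2 TSSs (60.3% against 29.2%) and 1.41 among genes with 3 or more (75.2% against 53.3%).

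A pair without a reproducible summit was often not empty in the relaxed lists, which hold 30000 peaks each. Of the 1331 unoccupied pairs, 645 (48.5%) had a relaxed summit in replicate 2 and 865 (65.0%) in replicate 3, 532 (40.0%) had one in both, and 353 (26.5%) in neither. The share of other genes or other positions with a relaxed summit was not counted, so these values have no background beside them. Occupied here means above the authors' threshold for the reproducible list, and unoccupied does not mean unbound.

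Occupancy varied with the distance between the TSSs. It was 60.7% (54.5 to 66.7) of the 242 pairs spaced over 200 and up to 250 bp, 59.0% up to 300 bp and 58.4% up to 350 bp. From there it was lower, 43.4% (37.6 to 49.4) over 400 and up to 500 bp and 38.1% (32.8 to 43.6) over 700 bp. Among close pairs the order was uneven: 42.0% (35.0 to 49.3) at 1 to 50 bp, 57.7% (51.4 to 63.6) up to 100 bp, 53.8% up to 150 bp and 40.3% (32.7 to 48.3) up to 200 bp. The rule's reach shrinks with spacing, so the shares were also taken with a summit within 500 bp of the middle at every spacing, a count added after the values were seen. They were then 40.3% up to 50 bp, 38.3% over 150 and up to 200 bp, 60.3% over 200 and up to 250 bp, 42.3% over 400 and up to 500 bp and 35.8% over 700 bp. The low share over 150 and up to 200 bp under the rule was seen in replicate 2 alone (40.9%) and in replicate 3 alone (41.6%), and with only the outermost TSS of each gene (37.9%). At 1 to 50 bp the replicates gave 40.9% and 48.1%.

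**Figure D1:**
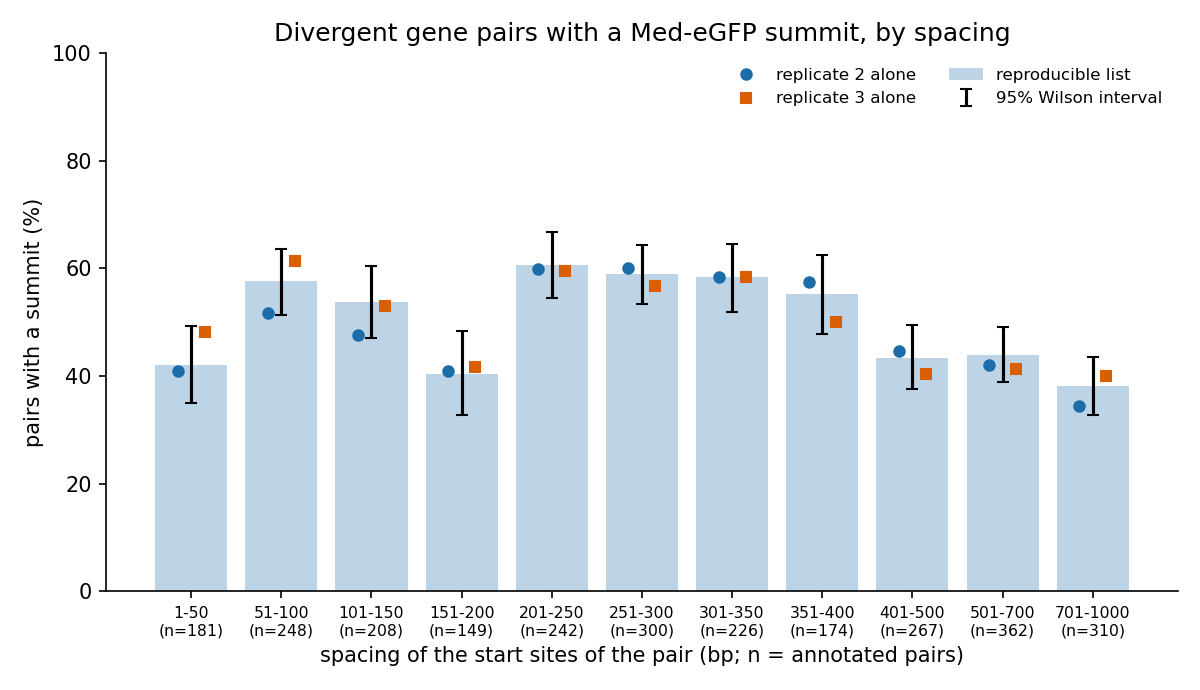
Share of annotated divergent pairs with a summit (%, vertical axis) by spacing of the start sites (bp, horizontal axis, with the number of pairs). Bars are the reproducible list with 95% Wilson intervals, circles replicate 2 alone and squares replicate 3 alone; the bars over 200 and up to 400 bp stand between 55.2% and 60.7%, and the bar just before them at 40.3%.

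By chromosome arm, occupancy was 55.9% (52.2 to 59.6) on 3R, 51.4% on 3L, 47.5% on 2R, 47.3% on 2L and 46.4% (41.6 to 51.3) on X. The replicates alone gave 54.8% and 55.5% on 3R, and 49.9% and 43.9% on X. The interval of 3R overlaps that of 3L (47.1 to 55.6), and those of 3L, 2R, 2L and X overlap. Of the 11 pairs on chromosome 4, 2 were occupied.

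Within a pair the summit usually lay between the start sites. This held for 1057 of the 1364 summits, 77.5% (75.2 to 79.6), while the stretch between the TSSs was a median 18.0% of the positions the rule allowed. The single-replicate lists gave 81.8% for replicate 2 and 70.7% for replicate 3. Where genes have several TSSs, the combination nearest to the summit was used, which favours short distances; with only the outermost TSS of each gene the share was 71.8%. Summits were a median of 61 bp from the nearer TSS (quartiles 31 and 105 bp). For the other promoter summits that median was 153 bp, but each divergent summit has at least 2 TSSs to be near. The sides were even, with 682 summits nearer to the minus-strand TSS, 681 nearer to the plus-strand TSS and 1 at equal distance. By annotation, 836 summits (61.3%) lay between genes, 372 (27.3%) in an exon and 156 (11.4%) in an intron.

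The share between the TSSs has to be read against spacing, since a longer stretch takes more of the positions the rule allows. It was 13.6% at 1 to 50 bp, where the stretch was a median 1.73% of those positions, and 55.6% over 50 and up to 100 bp, where it was 4.05%. It was 87.0% over 250 and up to 300 bp (16.1% of the positions) and 81.3% over 700 bp (70.7% of the positions). For the 470 summits of pairs spaced over 400 bp, the summit was a median of 65 bp from the nearer TSS and 239.8 bp from the middle, while for the 894 of pairs spaced up to 400 bp these medians were 59 bp and 59.25 bp. The samples are labelled with fragments of 200 to 800 bp, so a summit need not mark the bound bases. The part of fragment length in these positions was not tested. Over 400 bp both replicates placed the summit on the same side of the middle at 434 of 441 peaks, 98.4%, whereas up to 100 bp they did so at 138 of 169, 81.7%, and over 100 and up to 200 bp at 116 of 147, 78.9%. The summits of the replicates were a median of 22 bp apart (upper quartile 45 bp), which is close to the spacing of the closest pairs. In each replicate the overlapping summit nearest to the reproducible summit was used, which favours short distances and the same side. Of 1308 peaks found in both relaxed lists, 942 had the summit between the TSSs in both replicates, 107 in replicate 2 only, 36 in replicate 3 only and 223 in neither. The 307 summits outside the stretch were split into 164 on the minus-strand gene's side and 143 on the plus-strand gene's side, and 218 of them were within 100 bp of the nearer TSS.

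**Figure D2:**
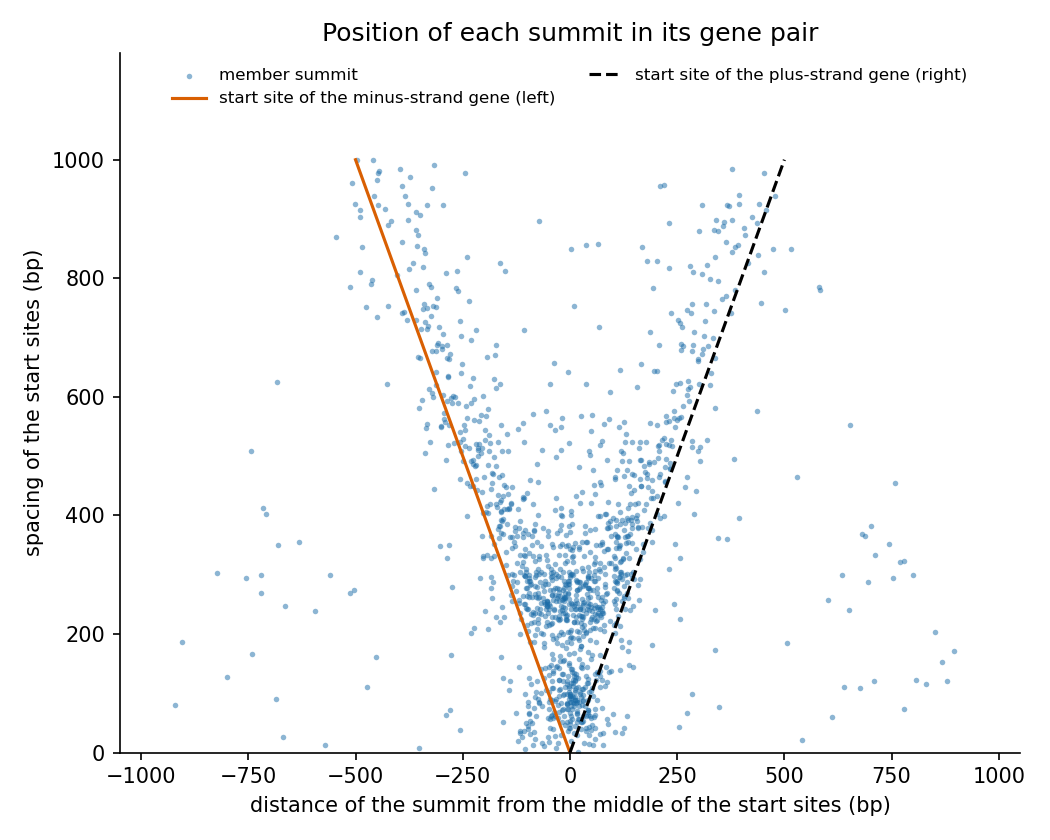
Each point is 1 of the 1364 summits, by its distance from the middle of the start sites (bp, horizontal axis, minus-strand gene to the left) and the spacing of the start sites (bp, vertical axis). The solid and dashed lines are the TSSs of the minus-strand and plus-strand gene; points of pairs up to about 400 bp apart fill the space between the lines and those of wider pairs run along them.

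The pairs at the ends of the spacing range had signals from 187.9 to 885.1. Atg6/Pisd, an autophagy gene beside a phosphatidylserine decarboxylase gene, had TSSs 1 bp apart and a peak of 219.3 (58.85 in replicate 2 and 154.6 in replicate 3). CG3032/CG4593, 6 bp apart, had 607.4 (344.7 and 266.8), and SerRS/CG17260, with a seryl-tRNA synthetase gene and 8 bp apart, had 885.1 (479.1 and 410.0); CG9588/Lkb1, also 8 bp apart, had a weaker peak. At the wide end, RpS7/Anp, a ribosomal protein gene and an antibacterial peptide gene spaced 1000 bp, had its summit 3 bp from the RpS7 TSS, with a signal of 327.4 (132.9 and 289.9). CG32767/CG15465, 991 bp apart, had 358.3 (159.4 and 205.7). At hts/CalpA the rule also took a weaker summit with a combination of TSSs 999 bp apart, with 328.9 (81.3 and 239.1). Smg5/Ance, 984 bp apart, had 187.9, with 154.9 in replicate 2 and 31.9 in replicate 3, where it ranked 29175 of 30000. Just outside the limit were LysX/Aplip1 (1015 bp, 194.7), Alp1/Syx7 (1015 bp, 311.7) and Rpn11/qtc (1025 bp, 188.8).

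Signal was somewhat larger at divergent pairs than at other promoters. The median was 326.2 in the reproducible list, against 279.1 for the 2293 other promoter peaks and 262.9 for the 2210 peaks away from promoters. In replicate 2 the medians were 148.7, 130.4 and 108.3, and in replicate 3 they were 182.8, 168.2 and 160.6. The ratio to other promoters was 1.17, with 1.14 and 1.09 in the replicates, and 1.006 among the 2933 strongest peaks, where the medians were about equal. With all peaks cut into 4 equal parts by signal, divergent pairs made up 28.3% of the strongest part, then 26.3%, 20.3% and 18.1% of the weakest. Most peaks overlap in range between the classes.

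**Figure D3:**
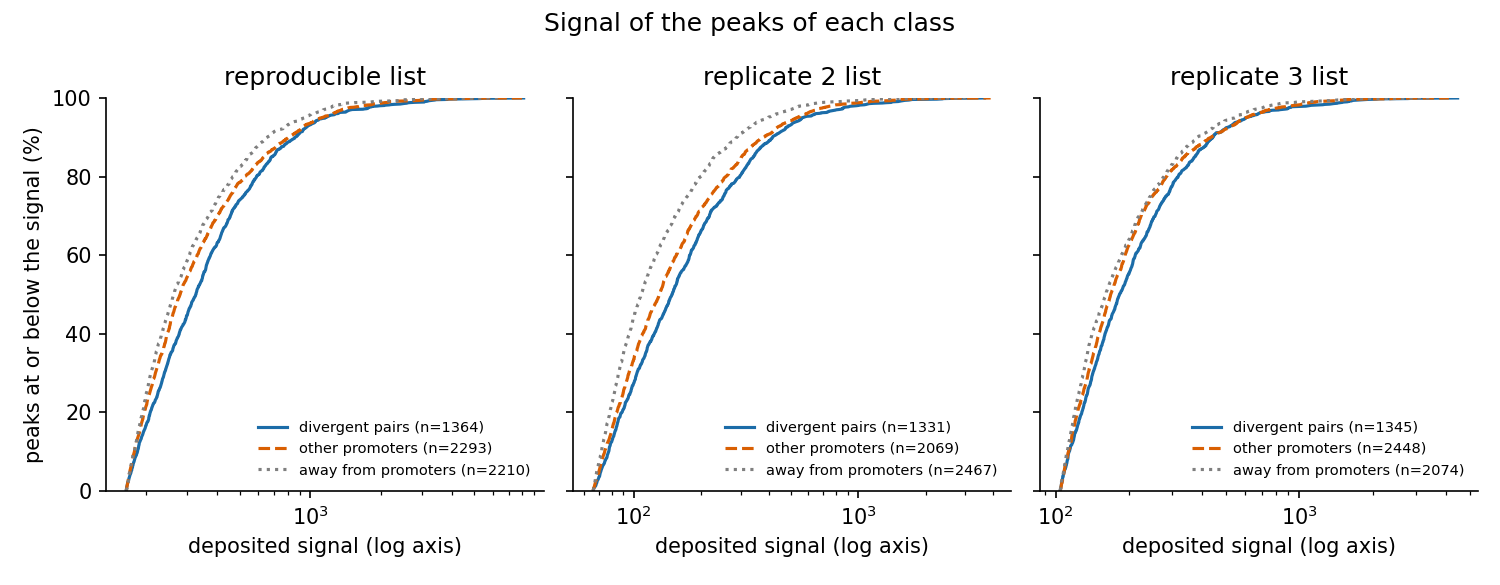
Cumulative share of peaks (%, vertical axis) by deposited signal (authors' units, log axis) for divergent pairs, other promoters and peaks away from promoters, in the reproducible list and the 5867 strongest peaks of replicates 2 and 3. The line of divergent pairs lies to the right in each list (medians 326.2, 148.7 and 182.8), and the 3 lines overlap over most of their range.

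Among their strongest peaks, the replicates shared more of these summits than of the others. A summit was within 100 bp of one in the 5867 strongest peaks of both replicates for 1014 of 1364, 74.3% (72.0 to 76.6), against 64.8% (62.9 to 66.8) of other promoter summits, 65.8% of summits away from promoters and a background of 67.4% of all reproducible summits. In the top list of replicate 2 alone, members had 84.5%, other promoter summits 75.6% and summits away from promoters 84.0%. In that of replicate 3 alone these shares were 88.3%, 87.6% and 80.2%. Members in both top lists had a median signal of 397.6, against 326.2 over all members, and the part of signal in the share in both lists was not tested. In the relaxed lists 50 of the members (3.67%) were absent from replicate 2 and 6 (0.44%) from replicate 3. Of other promoter peaks 4.97% and 0.785% were absent, of peaks away from promoters 3.08% and 2.62%, and of all reproducible peaks 3.95% and 1.4%. The log2 ratio of replicate 3 to replicate 2 had a median of 0.25 (SD 0.74 over 1308 peaks), against 0.43 at other promoter peaks and 0.29 away from promoters. Divergent-pair peaks were narrower, at a median of 330 bp, than the other promoter peaks at 376 bp.

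The DRE, the BEAF site and the M1BP motif were more frequent at the summits than in the flanks and at other promoter summits. In windows of 50 bp to either side of the summit the DRE was found at 102 summits, 7.48% (6.2 to 9.0), against 3.97% of other promoter windows, 0.181% of windows away from promoters, 0.623% of windows 500 bp to either side, and a background of 3.36% of all reproducible windows. The lists of replicates 2 and 3 gave 7.21% and 8.1%. The BEAF site CGATA was in 33.4% (31.0 to 36.0) of the windows, against 22.9% at other promoters and 12.8% in the flanks. The M1BP motif was in 4.25% (3.3 to 5.46), against 2.88% and 0.55%. From the strongest to the weakest of 4 equal parts of the members its share was 0.88%, 2.35%, 5.87% and 7.92%, and in the replicate lists the strongest and weakest parts held 1.2% and 5.71% (replicate 2) and 1.19% and 6.25% (replicate 3). For the BEAF site these shares were 24.3%, 36.4%, 37.8% and 35.2%, and the strongest part held 22.8% in replicate 2 and 25.2% in replicate 3. Other promoter summits lay farther from a TSS (median 153 bp against 61 bp), and the part of this distance in the motif shares was not tested. The flanks had a GC content of 47.8% and the summit windows 39.6%, and the part of base composition in the motif shares was not tested.

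Letters of Smad sites were not more frequent at the summits than around them. GTCT was in 29.3% (26.9 to 31.7) of the windows, against 34.6% at other promoters, 31.0% away from promoters and 37.4% in the flanks. GGCGCC, a GC-rich site of Mad, was in 1.83% (1.24 to 2.69), against 3.81% in the flanks. GTCTAGAC, the palindrome of the Smad box, was in 1 window. The flanks are richer in G and C (47.8%, SD 10.2) than the summit windows (39.6%, SD 9.39), and the part of base composition in these shares was not tested. The GAGA factor string GAGAG was in 8.28% of the windows, against 12.9% at other promoters, and the TATA box string TATAAA in 14.9%, against 12.8%. At the early activator Zelda's string CAGGTA the shares were 2.35% and 2.01%.

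**Figure D4:**
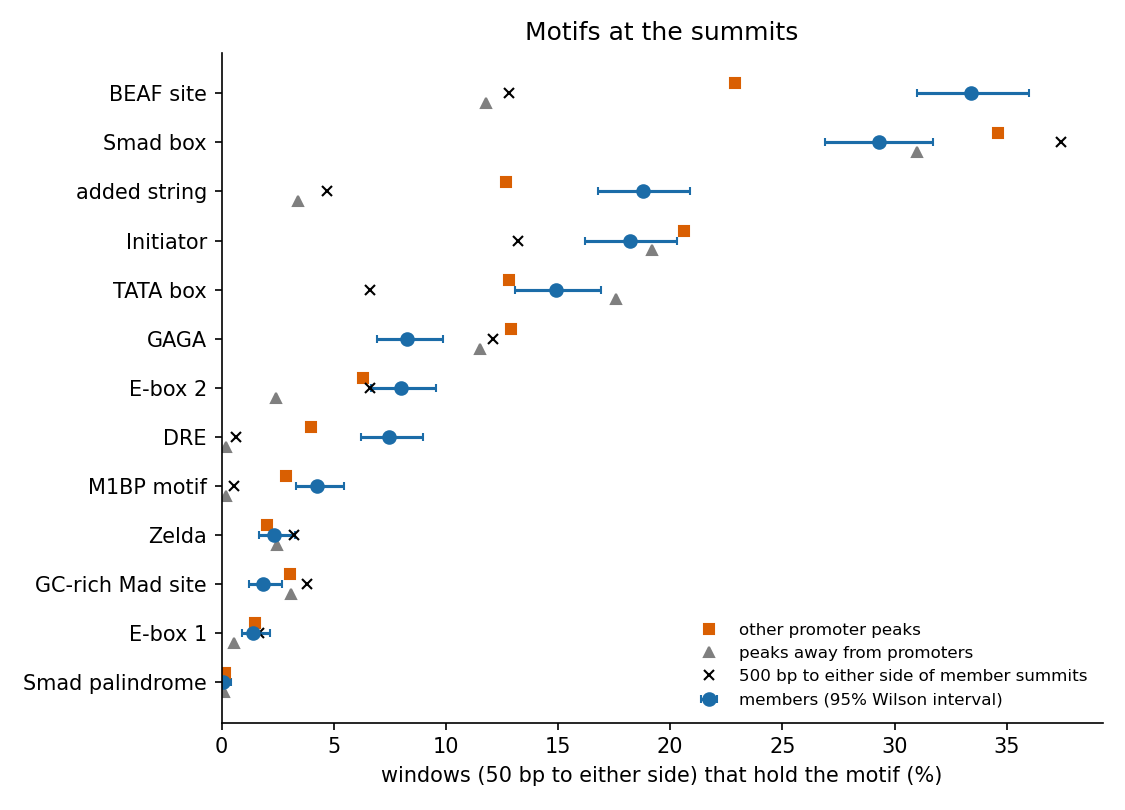
Share of windows (50 bp to either side) that hold each motif (%, horizontal axis) at divergent summits (circles with 95% Wilson intervals), other promoter summits (squares), summits away from promoters (triangles) and 500 bp to either side of divergent summits (crosses). The BEAF site (33.4%) and the DRE (7.48%) are above all comparison windows, the Smad box (29.3%) is below them, and the added string was chosen after its values were seen.

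Motifs at the middle of a pair were then set against occupancy, over windows of 150 bp to either side of the middle at all annotated pairs, which does not use the summit position. The DRE was in 15.4% (13.6 to 17.5) of occupied and 11.3% (9.68 to 13.1) of unoccupied pairs. The BEAF site was in 58.8% (56.1 to 61.4) and 50.3% (47.7 to 53.0). In windows of 50 bp to either side of the middle these differences were not seen: the DRE was in 4.79% of occupied and 4.96% of unoccupied pairs, the BEAF site in 24.3% and 22.9%, and the M1BP motif in 2.69% and 2.93%. In the longer windows the M1BP motif was in 10.3% and 9.02%, with overlapping intervals, and GTCT in 66.4% and 65.2%. GC content was alike, 35.2% (SD 6.81) and 35.3% (SD 7.4). Occupied pairs were closer, with a median spacing of 290 bp against 325 bp for unoccupied pairs. The part of spacing in the DRE and BEAF shares was not tested. The string CANCNCTG, assembled from ranked strings of 8 letters after their values were seen, was in 442 of 1336 occupied pairs, 33.1% (30.6 to 35.7), and in 175 of 1331 unoccupied pairs, 13.1% (11.4 to 15.1). The replicates alone gave 34.0% against 12.8% and 32.7% against 13.7%, and the shorter windows held it in 160 of 1336 against 60 of 1331 pairs. The share of occupied pairs exceeded that of unoccupied pairs at every spacing class, from 44.7% against 24.3% at 1 to 100 bp to 11.5% against 5.86% over 400 bp.

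The strings behind it were ranked on arms 2L and X, and their shares on the other arms are given for the leading ones. AGTGTTGG was in 5.73% of occupied and 0.826% of unoccupied pairs there, CAACACTG in 7.6% and 2.01%, and CAGCCCTG in 6.72% and 2.13%. Others did not carry over: ATCAGCTG was in 6.72% and 7.67%, and ACAGCTGA in 8.04% and 8.15%. The values on all arms had been seen when the added string was chosen, so the other arms are no independent check of it. Nor are the replicate lists, the shorter windows or the spacing classes, which use the same pairs. The intervals given for the string do not allow for its choice.

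Among lists with at least 10 genes in divergent pairs, occupancy was largest for cytoplasmic ribosomal protein genes and smallest for cuticle protein genes and for odorant and gustatory receptor genes. Lists are of gene symbols, and the background is 50% (2527 of 5052) of all genes in divergent pairs. Of 56 cytoplasmic ribosomal protein genes in divergent pairs, 51 were in occupied pairs, 91.1% (80.7 to 96.1), with 87.5% and 91.1% in replicates 2 and 3. RpL40, RpS13, RpS15Ab, RpL24-like and RpL7-like were not. Without the 3 genes of the list whose symbols end in -like, 50 of 53 were, a set trimmed after the values were seen. Of 37 genes of the list that are in no divergent pair, 22 had a promoter summit, 59.5%, where all protein-coding genes outside such pairs had 19.3%. That background was not matched for the number of TSSs. Where a summit could be set to 1 ribosomal protein gene of a pair, it was nearer to that gene's TSS at 45 of 62 summits. RpS27/Nup37, with a nuclear pore gene, reached 2577 (1018 in replicate 2, 1573 in replicate 3), and Ripalpha/RpL7 had 2279 (852.7 and 1431).

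The mitochondrial ribosomal protein genes had a share of 62.7% (lower bound 50%, upper bound 73.9%), 37 of 59. Rab genes had 12 of 17 (11 of 16 without Rab3GAP1, which is not a Rab GTPase), vacuolar ATPase genes 10 of 14, autophagy genes 11 of 16 and the RNA exosome list 8 of 12 (6 of 9 without Rrp1, Rrp5 and Dis3l2, which are not exosome subunits). The intervals of these lists include the background. The shares of the respiratory chain (22 of 44), RNA polymerase II general factors (15 of 30), Mediator (9 of 19) and aminoacyl-tRNA synthetases (11 of 23) were near it. The 9 summits at pairs with a Mediator gene had a median signal of 900.1, and the strongest was MED30/Rev1 at 1439 (685.0 and 756.9). Of these 9 summits, 4 were nearer to the TSS of the Mediator gene than to that of its partner. The elm/MED27 peak had 1096 (622.5 in replicate 2, 479.3 in replicate 3).

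Other lists gave strong single pairs. ND-ASHI/Fum1, a complex I subunit gene beside a fumarase gene, had 1201 (496.8 in replicate 2, 700.9 in replicate 3), with the summit near the middle, 259 bp and 263 bp from the TSSs. Nup98-96/mbc, whose first gene encodes nuclear pore proteins, had 974.1 (522.8 and 456.2). Hat1/Rpn5, a histone acetyltransferase gene beside a gene of the proteasome lid, had 814.3 (503.3 and 319.5). Sf3b6/Tnpo, a splicing factor gene beside a nuclear import receptor gene, differed most between replicates in rank among these, with 448.8 (326.4 and 122.3), rank 678 in replicate 2 and rank 4703 in replicate 3. Some summits that met the rule lay well inside a gene: at Dhc64C/LeuRS-m, with 899.7 (451.9 and 445.5), the summit was in an intron 658 bp from the nearer TSS. Cuticle protein genes had 1 of 12 (1.49 to 35.4%), and odorant and gustatory receptor genes 3 of 26 (4.0 to 29.0%).

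**Figure D5:**
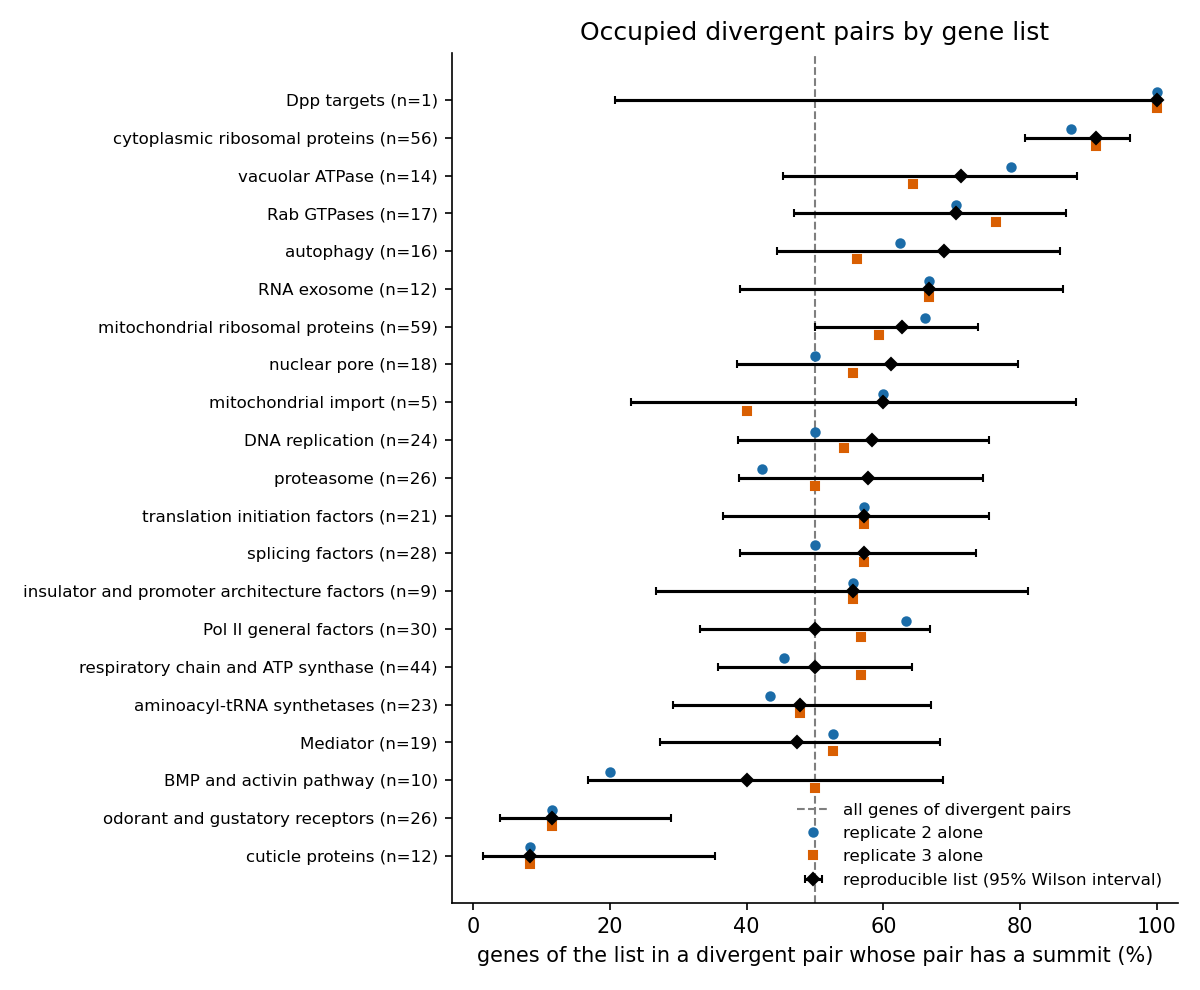
Share of the genes of each list that lie in a divergent pair with a summit (%, horizontal axis; n, genes of the list in divergent pairs). Diamonds are the reproducible list with 95% Wilson intervals, circles and squares are replicates 2 and 3 alone, and the dashed line is the 50% of all genes in divergent pairs; cytoplasmic ribosomal proteins stand at 91.1% and receptors at 11.5%.

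In the pathway in which Medea acts the interval of the share at divergent pairs included the background. Of 10 BMP and activin pathway genes in divergent pairs, 4 were occupied (40.0%, 16.8 to 68.7), 2 in replicate 2 alone and 5 in replicate 3 alone. Of 17 genes of the list in no divergent pair, 9 had a promoter summit, 52.9%, where all protein-coding genes outside such pairs had 19.3%. That background was not matched for the number of TSSs, and among such genes with 3 or more TSSs the share was 53.3%. The 4 genes in occupied divergent pairs are Med itself, dlp, which encodes a glypican, put, a type II receptor, and sax, a type I receptor. At CycG/Med the signal was 292.2, with no relaxed peak in replicate 2 and 272.8 in replicate 3, so this peak rests on replicate 3. Med is the tagged gene of the transgenic line. The strong Mnat9/CG1792 summit given above, chr3R:31616173, lies near the Med TSS at chr3R:31611046. The part of the transgene in the signal at either pair was not tested. At RecQ5/dlp the signal was 297.3 (133.9 and 220.4). Mad, Smurf, cv, gbb, srw and tok were in pairs without a summit, which does not speak of their other promoters. Of the list of Dpp targets, 1 gene was in a divergent pair, Ance, at the weak peak beside Smg5 given above. Of the 21 others of that list, 6 had a promoter summit, 28.6%.

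Genes of insulator and promoter architecture factors had 5 of 9 in occupied pairs. Chro, Cp190, Dref, M1BP and pzg were in occupied pairs, and Ibf1, Ibf2, Trl and su(Hw) were not. At Dref/RpL13, the pair of the DRE-binding factor gene and a ribosomal protein gene, the signal was 889.9 (297.0 and 615.6). Pairs with both genes in 1 list were RPA1/Mcm2 (DNA replication, 281.6, with 163.0 and 144.7) and Rrp5/Dis3 (RNA exosome list, in which Rrp5 is a pre-rRNA processing factor, 326.8, with 128.2 and 194.3). No other member pair had both genes in 1 of the 21 lists.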

How the data were processed

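Signal is the authors' deposited value per peak, on an unstated scale. It ranked peaks within a list, and ratios between replicate lists are given only beside the same ratio of other peaks, since the scales can differ. Per the deposited manifests, peaks of both replicates were called against 1 control file, and the optimal list was thresholded for irreproducible discovery. Aligner, caller and thresholds: not given in the sources used here. Depth is unknown. The dm3 lists and the list called on both replicates together were not used here. TSSs came from Ensembl release 115 (BDGP6.54) and sequence from RefSeq Release 6. Both are dm6 coordinates, and 0 peak ends exceeded the arm lengths.

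A pair's TSS combination was that with the smallest summed distance to the summit. Signal and summit in a replicate were those of the overlapping relaxed peak with the nearest summit. This rule replaced the strongest overlapping peak after values were seen, because neighbouring peaks had been picked up, and it changed the peak used at 80 members. Members, gene lists (symbol patterns) and motifs were chosen with earlier results of these data known. The symbol patterns of the ribosomal protein and Rab lists were kept as first written. Strings that set apart the strongest members were also ranked and are not reported. No test was run, because 1 group holds no contrast. Counting was tested on simulated data.

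Named were the pairs at the 12 strongest peaks, up to 2 strongest pairs per list, pairs with both genes in 1 list, the 3 closest and 3 widest pairs, each taken at its strongest summit (the stronger on a tie), and 3 pairs just outside the limit. A selection of these is printed. Alternatives were each replicate alone, a stricter list, other distances and windows, and outermost TSSs. Python 3.11.15, pandas 2.3.3, NumPy 2.4.6, SciPy 1.17.1 and matplotlib 3.10.9 were used.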

Additional observations from a re-analysis of the deposited data

How the results depend on the processing

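Of 61 alternatives over 10 results, 36 moved the value by less than the SD of the 2 single-replicate values (counts by less than 1.5 times) and 25 by more. That SD is small and rests on 2 values. From the replicates alone, summits numbered 1331 to 1345, occupied pairs were 48.63 to 49.68%, the median signal was 148.7 to 182.8 on the scales of the replicate lists, the ratio of median signal to other promoters was 1.087 to 1.141, summits between the TSSs were 70.71 to 81.82%, shares in 1 top list were 84.53 to 88.27%, DRE windows were 7.213 to 8.104%, the ratio of gene occupancy was 2.558 to 2.902 and the string ratio was 2.383 to 2.647. The stricter list of 2933 peaks gave 801 summits, 31.53% of pairs, a median signal of 461.9, a signal ratio of 1.006, 6.742% of windows with a DRE and a gene occupancy ratio of 3.237. A spacing limit of 500 bp gave 52.98% of pairs, a signal ratio of 1.215 and 77.19% of members in both top lists. A summit within 500 bp gave 40.83% of pairs, a signal ratio of 1.222 and 77.11% in both top lists. A spacing limit of 2000 bp gave 39.35% of pairs. Summits within 50 bp gave 65.54% in both top lists, and windows of 100 bp to either side gave 13.49% with a DRE. Chosen after seeing the data, a summit within 500 bp of the middle gave 48.52% of pairs, members in both top lists had a median signal of 397.6, genes with 1 TSS gave an occupancy ratio of 3.352, and the string ratio was 2.274 on arms 2R, 3L, 3R and 4. The cause of these moves was not tested. With the strongest overlapping peak in place of the nearest, the median log2 ratio of replicates stayed 0.25 (SD 0.69). No paired analysis was possible because there is 1 group. Depth is unknown, so a pair without a summit may be below detection.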

Other observations

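Among the occupied pairs, 155 (11.6%) had 2 or more reproducible summits. The first and last of these lay a median of 622 bp apart, and at 117 of these pairs they stood on both sides of the middle. The smallest TSS spacing of these pairs had a median of 323 bp. How many of their summits lay beyond the start sites was not counted.

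The annotation also holds 53 head-to-head pairs whose 5′ ends overlap, which the rule leaves out. Of these, 17 had a summit within 1000 bp of both start sites (32.1%), with 22.6% in replicate 2 alone and 34.0% in replicate 3 alone. Of the 1364 divergent summits, 1263 had exactly 1 annotated pair that met the rule, and the others had up to 21, where the annotation lists the pre-mod(mdg4) genes separately. Without those genes the share of occupied pairs was 50%.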
